A study of Homo sapiens with 24 samples.

Results

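Keratins are the subject here. They were taken as every gene symbol made of KRT, a number and at most 1 letter from A to C, in 4 tables of RNA-Seq from triple-negative breast cancer (TNBC) cell lines. The rule found 55 keratins among the 66659 symbols of the 4 tables together. Of these, 29 were listed for Hs578T, 45 for HCC70, 55 for the MDA-MB-231 guide RNA table (25 of them above 0) and 23 for the MDA-MB-231 expression vector table. Only 19 were listed in all 4.

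The study compared breast cancer stem-like cells (BCSCs) with cells sorted as negative for both of its BCSC markers (non-BCSCs). It also compared cells with altered KIF20A, a mitotic kinesin, with their controls. It has 24 libraries in 8 conditions of 3 replicates. Hs578T and HCC70 cells, both of wild-type genotype, were sorted into BCSCs, marked as CD24-CD44+ and ALDH+, and non-BCSCs. Cells labelled MDA-MB-231 carried a control guide RNA (sgCtrl) or a KIF20A guide RNA (KIF20A sg1, labelled knockdown) in 1 batch. In another they carried an empty vector (EV) or, by their labels, a KIF20A expression vector (KIF20A OE). All 9 of 9 MDA-MB-231 markers were lower in the KIF20A OE libraries than in EV, as given below. Each table is 1 batch, so batch and cell line or experiment cannot be told apart, and no test was made across tables other than that of the difference in BCSC effect. The labels do not say whether replicates were separate cultures, though the methods call them biological triplicates.

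Keratins are the intermediate filament proteins of epithelial cells. They assemble as obligate pairs of an acidic type I chain and a basic type II chain. KRT8 (type II) pairs with KRT18 (type I) in simple epithelia, joined by KRT7 (type II) and KRT19 (type I), and these 4 mark luminal breast cells. KRT5 (type II) pairs with KRT14 (type I) in basal cells of the breast and skin, and KRT17 (type I) is a further basal chain. KRT6A, KRT6B and KRT16 are stress and hyperproliferation keratins, KRT4 and KRT13 belong to moist stratified epithelia, and KRT10 to skin cells that have left the basal layer. The filaments attach to cell junctions called desmosomes and to matrix anchors called hemidesmosomes.

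In GENCODE 44 (GRCh38) 27 of the 55 genes lie on chromosome 12 and 28 on chromosome 17. KRT7 is at chr12:52232520-52252186 on the plus strand, KRT8 at chr12:52897187-52949954 on the minus strand, KRT18 at chr12:52948871-52952906 on the plus strand and KRT19 at chr17:41523617-41528308 on the minus strand. KRT5 is at chr12:52514575-52520530, KRT14 at chr17:41582279-41586895 and KRT17 at chr17:41619442-41624842, all on the minus strand. KRT8 and KRT18, although partners of different type, are neighbours on opposite strands whose annotated exons share 525 bases.

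Levels of different genes are compared only per transcript length. They are in TPM, a unit already scaled for length, for the sorted lines. For MDA-MB-231 they are CPM, reads scaled to library size, divided by transcript length in kb, where the guide RNA table's values are the authors' normalised signal, named CPM. Summed over all keratins, HCC70 non-BCSCs held 12348, 14277 and 14243 TPM, and Hs578T non-BCSCs held 377, 405 and 403 TPM. HCC70 is thus the keratin-rich line, and its levels and those of Hs578T did not overlap.

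Hs578T had an almost pure KRT18 profile. KRT18 was at 302, 334 and 330 TPM in non-BCSCs, which was 81.5% of all keratin RNA, while its partner KRT8 was at 17.7, 15.5 and 17.2 TPM. KRT18 therefore exceeded KRT8 in every library, by ratios of 17.1, 21.6 and 19.2. KRT10, at 24.2 ± 3.06 TPM (SD, n = 3), and KRT80, a type II keratin, at 18.4 ± 1.04 TPM (SD, n = 3), came next, and type I chains made up 88.5% of the sum. KRT79 was at 4.60 ± 0.373 TPM, KRT7 at 3.46 ± 0.836 TPM and KRT19 at 0.106 ± 0.00979 TPM (SD, n = 3). KRT5 was not listed in this table, KRT14 was at 1.5 ± 0.30 TPM and KRT17 at 0.0677 ± 0.0358 TPM (SD, n = 3), so the basal class made up 0.397% of keratin RNA. Of KRT5, KRT8, KRT18 and KRT19, which mark breast epithelial classes, KRT8 and KRT18 were thus present in this line, KRT19 rested on 2 reads in each non-BCSC library and KRT5 was not listed. The mesenchymal filament gene VIM was at 3700 ± 37.7 TPM (SD, n = 3) in the same libraries.

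HCC70 held both classes at nearly the same level. KRT5 led with 4017, 4479 and 4363 TPM in non-BCSCs, followed by KRT19 with 3002, 3615 and 3671 TPM, and every KRT5 value was above every KRT19 value. KRT16 was at 1829 ± 231 TPM, KRT4 at 1131 ± 146 TPM and KRT7 at 966 ± 27.1 TPM (SD, n = 3). KRT17 was at 578 ± 11.5 TPM, KRT18 at 376 ± 46.9 TPM and KRT8 at 358 ± 10.6 TPM (SD, n = 3), and KRT18 and KRT8 overlapped. KRT14, the usual partner of KRT5, was at 62.9, 88.0 and 81.1 TPM, far below KRT5 in every library. The simple class made up 37.6%, the basal class 36.3% and all other keratins 26.0% of the sum. KRT5, KRT8, KRT18 and KRT19 were all present.

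MDA-MB-231 cells had a simple profile in both of their tables. In sgCtrl, KRT8 was at 414 signal units per kb, KRT7 at 318, KRT19 at 265, KRT18 at 197 and KRT80 at 97.3, and the simple class made up 90.8% ± 1.05 of the keratin sum (SD, n = 3). In EV KRT19 was at 595 CPM per kb, KRT8 at 338, KRT18 at 281, KRT7 at 176 and KRT80 at 27.6, and the simple class made up 95.2% ± 0.317 (SD, n = 3). These 2 controls come from separately normalised batches and were not compared by a test. The order within each rests on 1 transcript length per gene. With the length of all exons merged, KRT19 led in sgCtrl at 158 units per kb, before KRT7 at 129 and KRT8 at 107. In EV KRT19 still led, at 354 CPM per kb, and KRT18 at 129 was above KRT8 at 87.6. KRT5 was at 0 reads in all 6 guide RNA libraries and was not listed in the vector table. The basal class made up 0.0222% of the keratin sum in sgCtrl and 0.253% in EV.

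**Figure D1:**
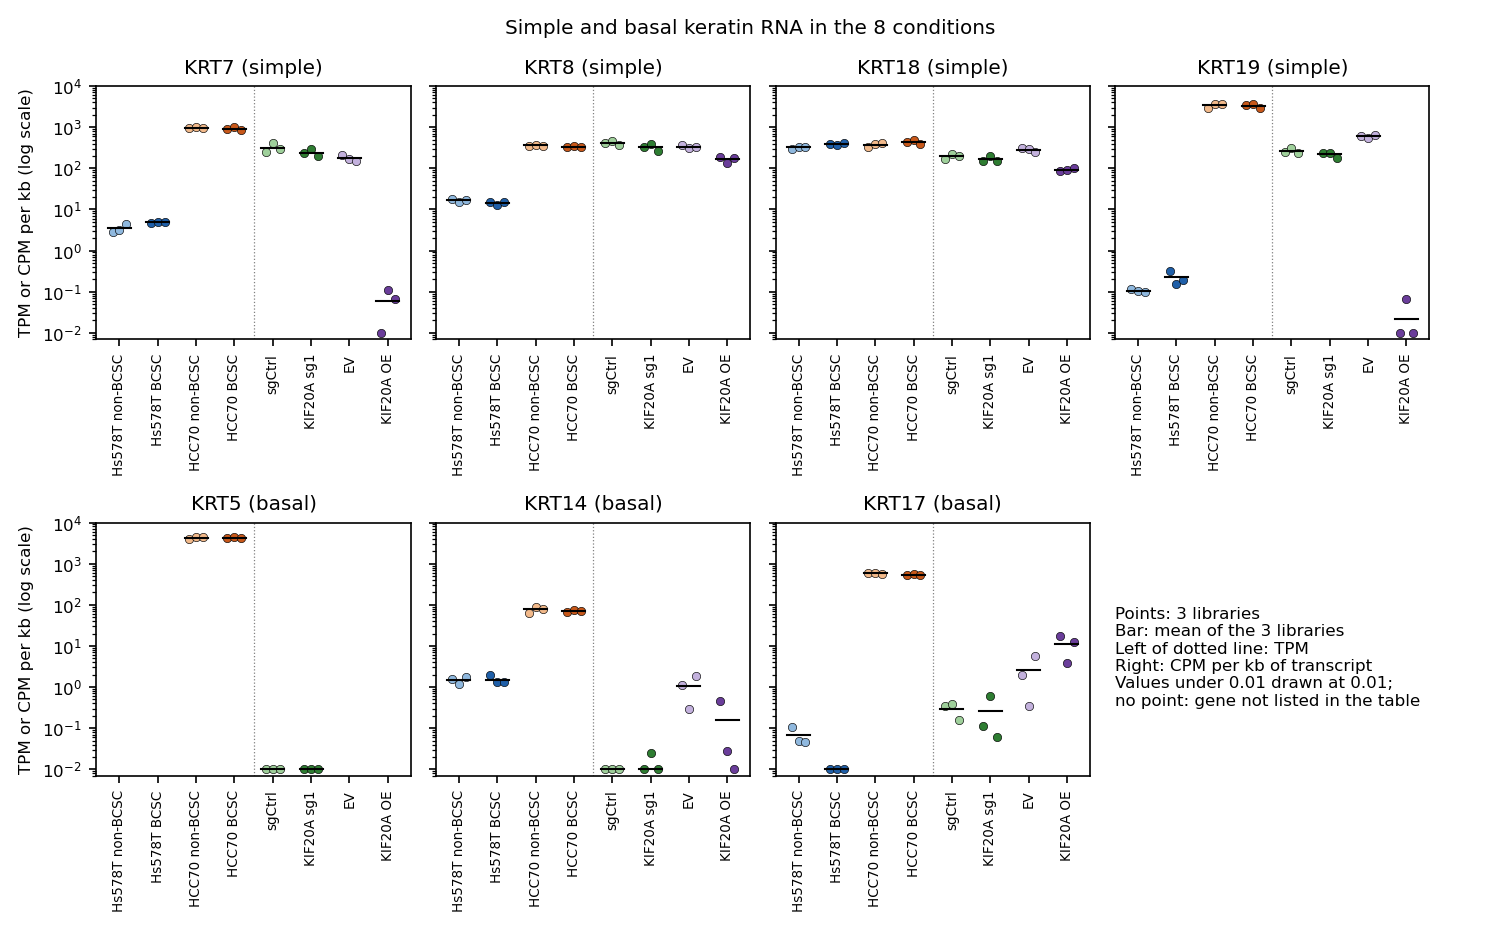
Level of the 4 simple and 3 basal keratins in each of the 24 libraries (points) with the mean of 3 libraries (bar). Units are TPM for Hs578T and HCC70 and CPM per kb of transcript for the libraries labelled MDA-MB-231. The axis is logarithmic, with values under 0.01 drawn at 0.01 and no point where a gene was not listed. KRT5 is high only in HCC70, and KRT7 and KRT19 sit below 1 in the libraries labelled KIF20A OE. The mean of KRT18 is at least 92.4 in all 8 conditions, each in its own unit, so its levels are not compared between units.

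**Figure D2:**
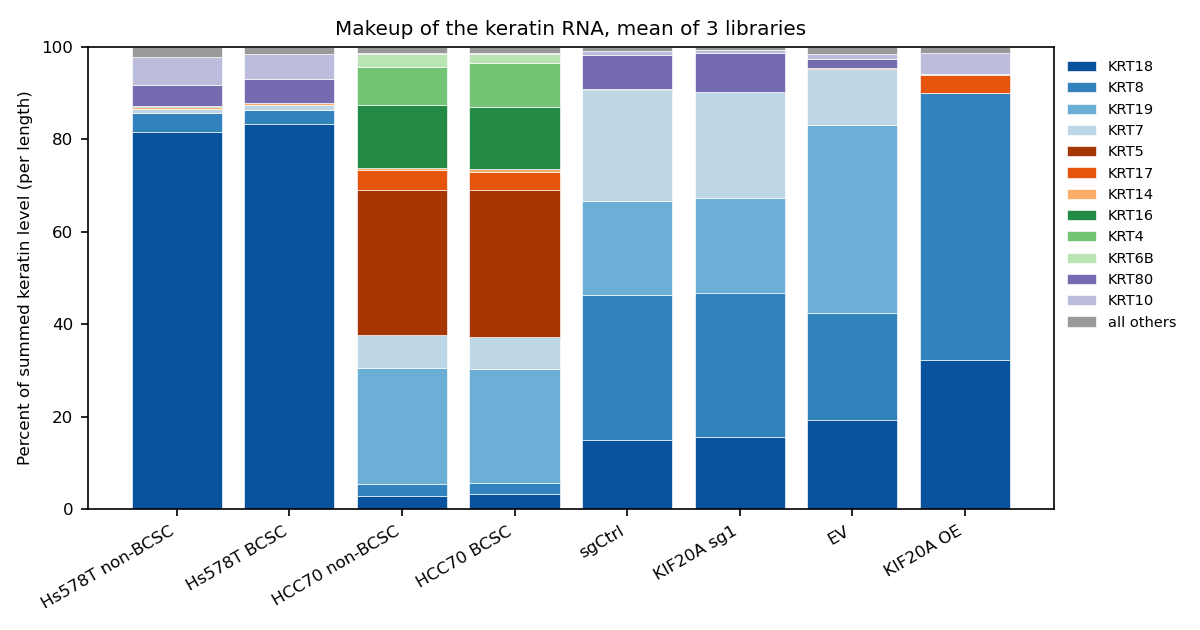
Share of each keratin in the summed keratin level per transcript length, in percent, as the mean of 3 libraries in each condition; blue marks the simple and orange to brown the basal class. KRT18 fills 81.5% of the Hs578T non-BCSC bar, HCC70 is split over both classes, and KRT8 and KRT18 fill 57.8% and 32.2% of the KIF20A OE bar (39.8% and 39.4% with the length of all exons merged).

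In Hs578T, KRT18 and KRT80 passed the test between BCSCs and non-BCSCs, and both were higher in BCSCs. KRT18 was at 302, 334 and 330 TPM in non-BCSCs and 398, 367 and 407 TPM in BCSCs. Every BCSC library was above every non-BCSC library, and limma gave a difference of 0.28 on the log2(TPM + 1) scale (SE 0.06, adjusted p = 0.0297). KRT80 was at 17.2, 18.9 and 19.1 TPM in non-BCSCs and at 24.1, 23.8 and 24.4 TPM in BCSCs. These groups did not overlap either, with a difference of 0.37 (SE 0.05, limma adjusted p = 0.00709). These 2 keratins of 8 tested were higher and 0 were lower by limma. Over all genes tested 7.15% were called, 2.90% as higher and 4.26% as lower. After rescaling by size factors from median ratios the calls over all genes were 620 higher and 573 lower, against 386 and 567 before. At an unadjusted p under 0.05 there were 5 keratins, where all genes gave 22.5%.

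KRT8, the partner of KRT18, had lower values in BCSCs and was not called. It was at 17.7, 15.5 and 17.2 TPM in non-BCSCs and at 14.9, 13.1 and 15.4 TPM in BCSCs. All BCSC values lay below all non-BCSC values, by 0.20 on the log2 scale, but limma did not call it (SE 0.08, adjusted p = 0.165). Neither edgeR (adjusted p = 0.161) nor DESeq2 (adjusted p = 0.318) called KRT8. The ratio of KRT18 to KRT8 was 17.1, 21.6 and 19.2 in non-BCSCs and 26.8, 28.1 and 26.4 in BCSCs. These ratios did not overlap and were not tested. KRT7 was at 2.87, 3.10 and 4.42 TPM in non-BCSCs and at 4.80, 4.90 and 4.85 TPM in BCSCs (difference 0.41, SE 0.13, limma adjusted p = 0.102). KRT15, a type I keratin of basal epithelial cells, averaged 1.11 ± 0.240 TPM in non-BCSCs, beside 1.68 ± 0.207 in BCSCs (SD, n = 3), and was not called although the groups did not overlap. KRT14 was at 1.5 ± 0.30 and 1.52 ± 0.374 TPM (SD, n = 3) and overlapped. KRT79, at 4.60 ± 0.373 and 3.65 ± 0.699 TPM (SD, n = 3), also overlapped and was not called (difference -0.28, SE 0.12, limma adjusted p = 0.223). KRT19 rested on 6 reads in non-BCSCs and 13 in BCSCs, and KRT17 on 4 and 0, both below the minimum mean of 1 for the test. Among the 8 tested, 4 keratins were higher and 1 lower without overlap, where 12.0% and 17.0% of all genes were, 29.0% in all. The median difference over the 8 was 0.18, beside -0.01 over all genes.

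KRT3, a type II keratin of the cornea, was below that minimum. It held 25, 27 and 21 reads in non-BCSCs, or 0.928, 0.893 and 0.651 TPM, against 5, 7 and 3 reads in BCSCs, or 0.168, 0.230 and 0.0924 TPM. The groups were fully separated. On the recovered reads edgeR gave a log2 fold change of -2.28 (adjusted p = 0.00182) and DESeq2 one of -2.31 (adjusted p = 0.00188). KRT3 was singled out after its values were seen.

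The call on KRT80 held in every alternative run for this comparison. That on KRT18 held after rescaling (limma adjusted p = 0.0208), in edgeR (adjusted p = 0.00368) and in DESeq2 (adjusted p = 1.01e-06). It was lost with no minimum mean (limma adjusted p = 0.0597) and with a replicate block (limma adjusted p = 0.0592). It was also lost without each single library other than replicate 2 of the BCSCs, at limma adjusted p between 0.0645 and 0.125. Without replicate 3 of the non-BCSCs KRT7 passed the test, with a difference of 0.55 (limma adjusted p = 0.0172). In sorted bulk libraries, fewer cells of a type and less RNA per cell cannot be told apart.

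In HCC70 limma called 1 of 19 tested keratins, KRT6B, as lower in BCSCs and 0 as higher, and edgeR and DESeq2 on the recovered reads also called 1. At an unadjusted p under 0.05 there were 2, where 23.7% of all genes were. KRT6B, a type II stress keratin, fell from 354, 406 and 412 TPM in non-BCSCs to 270, 288 and 271 TPM in BCSCs. The groups did not overlap, and the difference was -0.49 on the log2 scale (SE 0.07, limma adjusted p = 0.0174). Over all genes limma called 2.83%, 0.552% as lower and 2.28% as higher. Of all genes, edgeR called 745 of 13942 and DESeq2 1138 of 18248. The difference from its near copies was not tested. KRT6A averaged 73.7 ± 4.37 TPM in non-BCSCs, beside 70.9 ± 2.33 in BCSCs (SD, n = 3), and KRT6C at 0.566 and 0.528 TPM. KRT6B shares 24.4% of its stretches of 100 bases with other genes, mostly KRT6C, so reads could be split between them. The call on KRT6B was lost without each single library other than replicate 1 of the non-BCSCs, at limma adjusted p between 0.0502 and 0.102.

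The abundant pairs of HCC70 were not called. KRT5 was at 4017, 4479 and 4363 TPM in non-BCSCs and at 4148, 4385 and 4293 TPM in BCSCs, and the groups overlapped (difference -0.0026, SE 0.08, limma adjusted p = 0.988). KRT14 was at 77.4 ± 13.0 and 71.1 ± 4.37 TPM and KRT19 at 3430 ± 372 and 3326 ± 300 TPM (SD, n = 3), and both overlapped. KRT7 was at 966 ± 27.1 and 923 ± 58.3 TPM (SD, n = 3), also with overlap. KRT17 was at 576, 590 and 567 TPM in non-BCSCs and at 536, 551 and 542 TPM in BCSCs. All of its BCSC values were lower, by 0.09 on the log2 scale, and the test did not call it (SE 0.05, limma adjusted p = 0.335).

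KRT18 was at 324, 388 and 416 TPM in HCC70 non-BCSCs and at 447, 474 and 394 TPM in BCSCs, with overlap (difference 0.22, SE 0.11, limma adjusted p = 0.242). Without replicate 1 of the non-BCSCs the difference was 0.12. KRT8 was at 358 ± 10.6 and 337 ± 18.5 TPM (SD, n = 3) and was not called. The ratio of KRT18 to KRT8 was 0.930, 1.05 and 1.17 in non-BCSCs and 1.34, 1.33 and 1.23 in BCSCs. As in Hs578T, all BCSC libraries had the higher ratio, although the ratio itself was near 1 here and was not tested. KRT80 was at 6.53, 7.28 and 6.92 TPM in non-BCSCs and at 8.02, 8.40 and 8.10 TPM in BCSCs, without overlap and not called (difference 0.22, SE 0.07, limma adjusted p = 0.132). Of the 19 keratins, 1 was higher and 2 were lower without overlap, where 20.9% and 10.1% of all genes were, 30.9% in all.

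**Figure D3:**
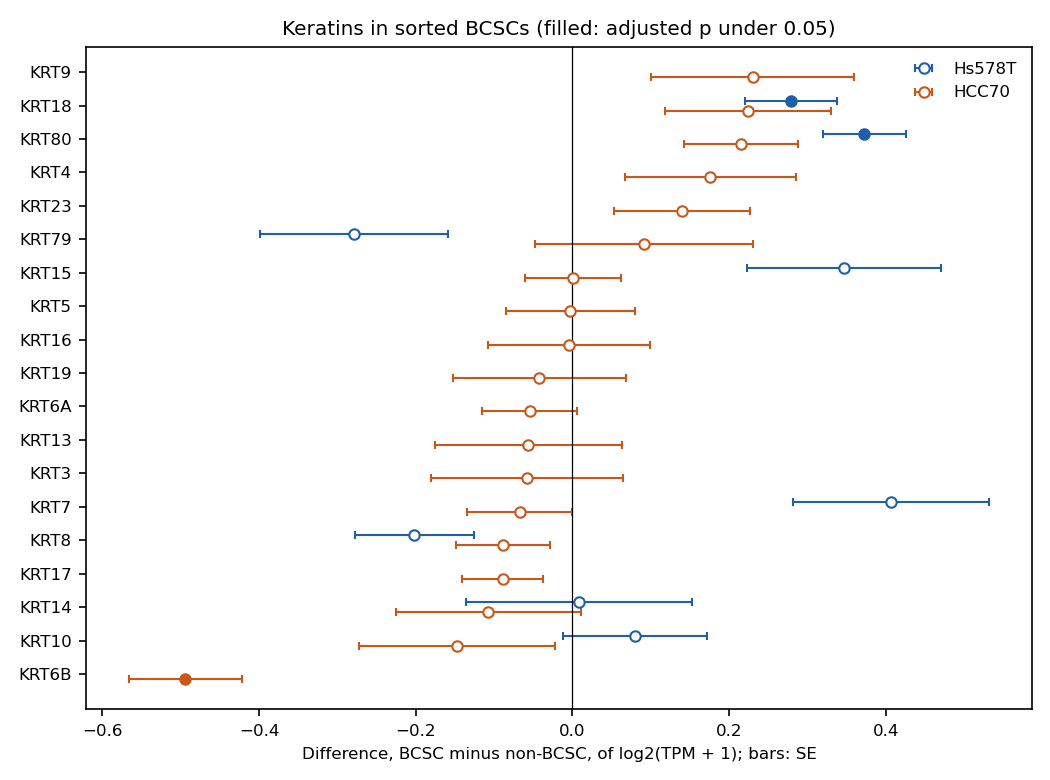
Difference between BCSCs and non-BCSCs on the log2(TPM + 1) scale with its SE for the 8 keratins tested in Hs578T (blue) and the 19 in HCC70 (orange); filled points have a limma adjusted p under 0.05. The filled points are KRT18 and KRT80 above 0 in Hs578T and KRT6B at -0.49 in HCC70.

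**Figure D4:**
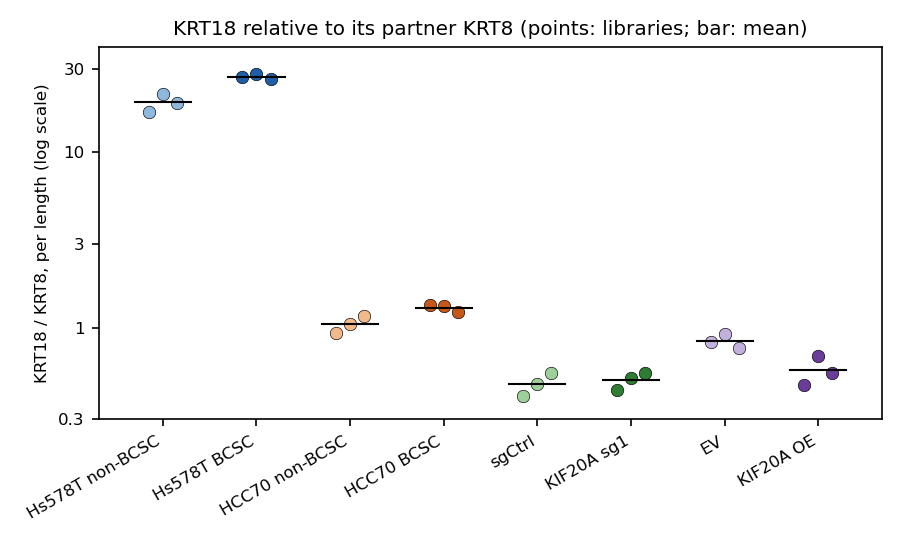
Ratio of KRT18 to KRT8 per transcript length in each library (points) with the mean (bar), on a log axis. The ratio is 17.1 or above in Hs578T and near 1 in HCC70, and it is higher in BCSCs than in non-BCSCs of both sorted lines. In the libraries labelled MDA-MB-231 it is below 1 with the 1 transcript length plotted. With all exons merged its mean was 1.48 in EV and 1.01 in KIF20A OE.

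The difference of the BCSC effect between the lines was tested for the 8 keratins above the minimum in both. By limma 0 of 8 passed at an adjusted p under 0.05 and 2 had an unadjusted p under 0.05, where 7.11% and 26.8% of all genes did; edgeR and DESeq2 were not run for it. Over all genes 656 were called as higher and 174 as lower, against 405 and 323 after rescaling by size factors. For KRT7 the effect in HCC70 minus that in Hs578T was -0.47 on the log2 scale (SE 0.14, limma adjusted p = 0.0625). It was -0.62 without replicate 3 of the Hs578T non-BCSCs (limma adjusted p = 0.00309). For KRT18 the difference of effects was -0.06 (SE 0.13) and for KRT80 -0.16 (SE 0.08). The direction was the same in both lines for 4 of the 8.

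Genes that work with keratins were counted in 6 lists. The lists were desmosome, hemidesmosome and plakins, other intermediate filaments, epithelial transcription factors, epithelial adhesion and splicing, and cornified envelope genes. In Hs578T limma called 4 of the 28 tested members, beside 7.15% of all genes. edgeR called 11, where it called 1806 of all 14211 genes it tested, and DESeq2 called 8, where it called 1466 of all 19283. DSP, the desmosomal protein that holds keratin filaments, rose from 26.3 ± 0.865 to 33.2 ± 1.48 TPM (SD, n = 3) with a limma adjusted p of 0.0105. DSC3, a desmosomal cadherin, fell from 2.68 to 1.76 TPM (limma adjusted p = 0.0412). DST, a plakin of hemidesmosomes, fell from 110 to 88.0 TPM (limma adjusted p = 0.010), and BFSP1, a lens filament gene, from 7.39 to 5.96 TPM (limma adjusted p = 0.0498). In HCC70 limma called 1 of 48 tested, OVOL1, an epithelial transcription factor, beside 2.83% of all genes, and 18 had an unadjusted p under 0.05, beside 23.7%. edgeR called 4, where it called 745 of all 13942 genes it tested, and DESeq2 called 6, where it called 1138 of all 18248. OVOL1 rose from 10.7 ± 0.0400 to 15.7 ± 0.708 TPM (SD, n = 3) with a limma adjusted p of 0.00927.

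Markers of mesenchymal cells moved beside the Hs578T result: 3 of 8 were lower in BCSCs, namely SNAI2, SPARC and FN1, beside 4.26% of all genes. VIM (3700 and 3893 TPM) and CDH2 (131 and 150 TPM) had higher values in every BCSC library and were not called by limma. edgeR and DESeq2 each called 5 of the list in either direction, where they called 1806 of 14211 and 1466 of 19283 genes. The summed level of all 8 was 13639 to 13846 TPM in non-BCSCs and 11451 to 12527 TPM in BCSCs. FN1, at 8091 and 6522 TPM, was the largest part of that sum. KIF20A itself was at 214 to 218 TPM in Hs578T non-BCSCs and 271 to 323 TPM in BCSCs, and averaged 71.4 ± 2.69 and 125 ± 3.48 TPM in the same groups of HCC70 (SD, n = 3). The part of either in the keratin differences was not tested.

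With the KIF20A guide RNA limma called 0 of 9 tested keratins of MDA-MB-231. All 9 had a lower mean, where the median difference over all genes was 0.00. The 9 come from the same libraries, so their directions are not independent. KIF20A was at 153, 173 and 156 units in sgCtrl and at 122, 145 and 91.1 units in KIF20A sg1. These values did not overlap, but the change was not called (log2 difference -0.45, SE 0.16, limma adjusted p = 0.690). Of all genes 0% were called. There were 2 keratins at an unadjusted p under 0.05, where 7.00% of all genes were. edgeR called 0 keratins, and 0 of all 16143 genes it tested. DESeq2 called 1 keratin, and 16 of all 29300 genes.

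That keratin was KRT81, a type II hair keratin, at 10.1, 13.6 and 12.3 units in sgCtrl and 6.35, 6.73 and 6.63 units in KIF20A sg1. The groups were clearly apart, with a difference of -0.77 on the log2(value + 1) scale (SE 0.16, limma adjusted p = 0.690), and DESeq2 gave an adjusted p of 0.0218. KRT81 shares 30.3% of its stretches of 100 bases with other genes, mostly its neighbour KRT86, which was at 1.65 ± 0.288 and 1.24 ± 0.30 units (SD, n = 3). KRT10 was at 33.0, 29.6 and 23.2 units in sgCtrl and 18.5, 18.3 and 15.0 units in KIF20A sg1. It did not overlap either (difference -0.69, SE 0.17, limma adjusted p = 0.690), and it was 1 of 144 genes called without replicate 3 of sgCtrl.

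KRT19 was at 344, 429 and 333 units in sgCtrl and 332, 319 and 253 units in KIF20A sg1. It was the third keratin without overlap, by a narrow gap (difference -0.29, SE 0.15). That difference was -0.18 without replicate 2 of sgCtrl and -0.17 without replicate 3 of KIF20A sg1. KRT8 was at 737, 821 and 655 units against 597, 691 and 474, and KRT7 at 400, 667 and 485 against 374, 471 and 332, and both overlapped. The difference of KRT7 was -0.38, or -0.18 without replicate 2 of sgCtrl, and that of KRT8 -0.34, or -0.19 without replicate 3 of KIF20A sg1. KRT18 was at 278 ± 36.1 and 233 ± 43.0 units (SD, n = 3) and overlapped, with a difference of -0.26, or -0.41 without replicate 2 of KIF20A sg1. KRT17 was at 0.447 and 0.397 units and KRT14 at 0 and 2 reads, below the minimum mean. The median difference over the 9 keratins was -0.29, beside 0.00 over all genes. In all, 3 keratins were lower and 0 higher without overlap, where 7.30% and 5.73% of all genes were, 13.0% in all. The summed simple class was 1075, 1398 and 1108 units per kb in sgCtrl and 952, 1107 and 798 in KIF20A sg1, which overlapped. Its share of all keratins was 90.8% and 90.2%. Of the 39 tested members of the 6 partner lists limma, edgeR and DESeq2 called 0, and 1 had an unadjusted p under 0.05 in limma.

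The libraries labelled KIF20A OE stood apart from EV in far more than keratins, with differences over most genes tested. Limma called 69.7% of all genes, 46.2% as higher and 23.4% as lower, with a median difference of 0.37 on the log2(CPM + 1) scale. With size factors from median ratios this shift was 0.03, and the calls became 5135 higher and 5013 lower, against 7055 and 3579 before. All 9 of 9 MDA-MB-231 markers were lower, with a summed level of 7679 to 8221 CPM in EV and 449 to 886 CPM in KIF20A OE, and CD44, AXL, NT5E and PLAU had means below 1 CPM. Of 7 markers of the embryonic kidney line type that the study used to package virus, 6 were higher and 1 lower. Their sum was 15.4 to 26.1 CPM in EV and 1436 to 1960 CPM in KIF20A OE, and in the latter 0 of 7 were at 0. Of these 7, 1 had a mean of at least 1 CPM in EV and 6 in KIF20A OE. Most of the 7 therefore passed the minimum mean through the group in which they were high and had to differ. For the 9 MDA-MB-231 markers these counts were 9 in EV and 5 in KIF20A OE. Both lists were written with earlier results of these data known. KIF20A was at 143 CPM or less in EV and at 1348, 269 and 896 CPM in KIF20A OE. The part of these differences in the keratin values below was not tested.

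The keratin RNA of these libraries was mostly KRT8 and KRT18. KRT19 was at 858, 744 and 880 CPM in EV and at 0, 0.0902 and 0 CPM in KIF20A OE. That is 48399 reads against 2, or after adjustment for depth and counting read pairs a ratio of 23430 with a 95% counting interval of 4205 to 925425. KRT7 was at 335, 281 and 245 CPM in EV and at 0, 0.180 and 0.107 CPM in KIF20A OE, or 17000 reads against 6 (log2 difference -8.03, SE 0.18). KRT80 was at 115, 118 and 89.0 CPM against 0, 0 and 0.321 CPM, or 6353 reads against 6. These 3 keratins, prominent in EV, were close to absent in all 3 libraries. They reached the minimum mean for the test through EV alone and so had to differ, and no p is given for them.

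KRT8 and KRT18 were lower than in EV but abundant. KRT8 was at 674, 559 and 574 CPM in EV and at 329, 234 and 325 CPM in KIF20A OE, without overlap (difference -1.04, SE 0.16, limma adjusted p = 0.000512). KRT18 was at 439, 405 and 346 CPM in EV and 122, 128 and 142 CPM in KIF20A OE, also without overlap (difference -1.59, SE 0.12, limma adjusted p = 1.17e-05). The ratio of KRT18 to KRT8 per length was 0.822, 0.915 and 0.762 in EV and 0.469, 0.690 and 0.551 in KIF20A OE. With the length of all exons merged it was 1.46, 1.62 and 1.35 in EV and 0.833, 1.23 and 0.978 in KIF20A OE, so the groups did not overlap with either length, while which of the pair was higher in EV turned. KRT10 was at 32.4, 33.7 and 40.8 CPM in EV and 27.8 ± 1.96 CPM (SD, n = 3) in KIF20A OE, all lower than EV. It was the only one of 14 tested that limma did not call (difference -0.34, SE 0.15, adjusted p = 0.0658), and it was called as lower after rescaling (difference -0.70, adjusted p = 0.00242) and by edgeR and DESeq2.

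The hair keratin KRT81 and KRT15 held 1179 and 900 reads in EV and 0 in KIF20A OE. Against a floor of 3 reads per library they were at least 126-fold and 94.8-fold lower. KRT86 was at 3.23 ± 1.54 and 0.314 ± 0.134 CPM (SD, n = 3) and KRT14 at 1.76 ± 1.26 and 0.265 ± 0.421 CPM (SD, n = 3), the latter with overlap. The call on KRT14 was lost without the second library of KIF20A OE (limma adjusted p = 0.112) or without the third (limma adjusted p = 0.114).

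Of the called keratins 4 were higher, and 3 of these had no reads in EV. KRT38, a type I hair keratin, was at 2.82, 3.65 and 2.30 CPM in KIF20A OE, at least 18.9-fold higher than EV against the same floor. KRT222, a keratin-like gene, was at 2.12 ± 0.628 CPM (SD, n = 3), at least 13.7-fold higher, and 35% of its stretches of 100 bases are shared with an overlapping gene on the same strand. KRT75, a type II keratin of the hair follicle, was at 3.01, 0.0902 and 3.48 CPM, at least 14.2-fold higher in the mean. Replicate 2 held 2 reads of KRT75 where the others held 48 and 65, and its call was lost without any 1 EV library, at limma adjusted p between 0.0574 and 0.0651. KRT17 was at 2.95, 0.532 and 8.47 CPM in EV and 26.9, 5.77 and 18.5 CPM in KIF20A OE. The groups overlapped, and the call (difference 2.00, SE 0.71, limma adjusted p = 0.0325) was lost after rescaling (limma adjusted p = 0.0648), in edgeR (adjusted p = 0.104) and DESeq2 (adjusted p = 0.171), and without each single library other than the third of EV and the second of KIF20A OE, at limma adjusted p between 0.063 and 0.127.

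In all, 4 keratins were higher and 9 lower of the 14 tested, beside 46.2% and 23.4% of all genes, and 14 had an unadjusted p under 0.05, beside 72.2%. After rescaling 1 was called higher (KRT38) and 10 lower of 12 tested, since KRT222 and KRT75 then had means below 1 and KRT17 was not called. Only 4 of the 14 had a mean of at least 1 CPM in both groups, so most passed the filter through the group in which they were high and had to differ. With single libraries left out 9 to 11 were called, and 9 were called in every such fit (KRT7, KRT8, KRT15, KRT18, KRT19, KRT38, KRT80, KRT81 and KRT86). Without overlap were 3 higher and 9 lower, where 48.9% and 25.2% of all genes were, 74.1% in all. The summed simple class was 1512, 1308 and 1351 CPM per kb in EV and 271, 222 and 282 in KIF20A OE. Its share of keratin RNA was 95.2% ± 0.317 and 90.2% ± 1.64, while the basal share, through KRT17, was 0.253% ± 0.243 and 3.81% ± 2.18 (SD, n = 3).

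**Figure D5:**
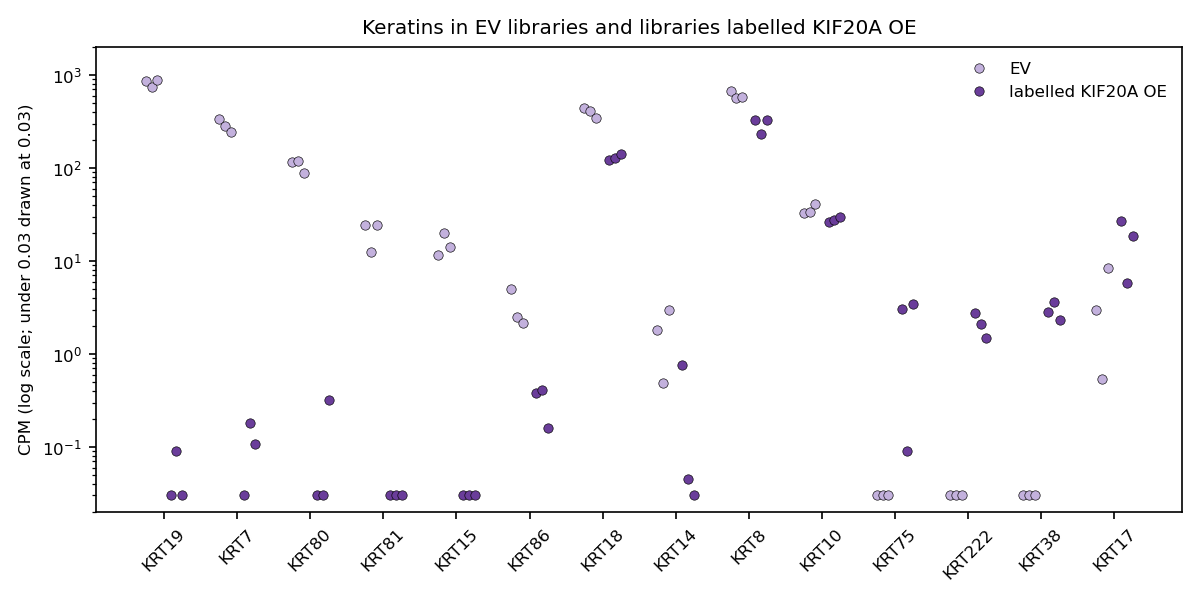
CPM of the 14 tested keratins in the 3 EV libraries (light) and the 3 libraries labelled KIF20A OE (dark), on a log axis with values under 0.03 drawn at 0.03, ordered by the fitted difference. KRT19, KRT7 and KRT80 are at 89.0 CPM or more in EV and below 1 CPM in KIF20A OE. KRT8 and KRT18 are above 100 CPM in both, and KRT38, KRT222 and KRT75 have no EV reads.

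The same lists were counted in these libraries, where 69.7% of all genes were called, 46.2% as higher and 23.4% as lower. All 8 of 8 hemidesmosome and plakin genes were lower: ITGB4, the integrin chain that binds keratins through PLEC, was at 562 ± 117 CPM in EV and 6.53 ± 0.346 CPM in KIF20A OE (SD, n = 3), and PLEC at 3098 and 172 CPM. EVPL was at 55.3 and 0.188 CPM and ITGA6 at 951 and 29.3 CPM. Of 9 desmosome genes tested by limma 3 were lower (PKP3, JUP and PKP2) and 1, DSC3, was higher, from 0.0322 to 56.4 CPM. In limma this was a smaller called share than over all genes, and the median difference was -0.02. edgeR called 6 desmosome genes, where it called 10889 of all 17078 genes it tested. DESeq2 called 7, where it called 11930 of all 23792. DSP was at 170 ± 101 and 206 ± 15.5 CPM (SD, n = 3) and was not called by limma. Among other intermediate filaments 5 were higher and 5 lower of 11. NEFL, INA and NEFM of neurons were at 0.0159 CPM or less in EV and at 80.6, 27.3 and 17.4 CPM in KIF20A OE. LMNA was at 977 CPM in EV and 145 CPM in KIF20A OE. NEFL, INA and NEFM are also in the kidney line list. In epithelial adhesion and splicing 4 of 5 were lower, CLDN4 from 101 to 1.08 CPM and CLDN7 from 70.2 to 1.11 CPM, and CDH1 was higher, from 0.299 to 3.52 CPM. Of 7 epithelial transcription factors 3 were lower, EHF from 112 to 0.0301 CPM, and 3 higher, TFAP2C from 1.32 to 16.3 CPM. In the cornified envelope list CNFN was higher and FLG lower.

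For 34 of the 55 keratins RefSeq promoter windows (GRCh38.p14) could be matched by symbol. The 250 bases before the start are considered. On either strand, TATAAA was found in 20 of the 34, where 11.1% of all 27305 promoters hold it. GGGCGG was found in 4 of the 34, where 42.3% of all promoters hold it. Their median GC content was 44.6%, beside 58.0% over all, and the median number of CpG was 2, beside 11. KRT7, KRT14, KRT17, KRT18 and KRT19 had no entry. Windows of 4 genes are shown for keratins with contrasting values: KRT5, abundant in HCC70 alone, KRT10, present in every condition, and KRT38 and KRT75, without reads in EV. All are on the minus strand and written 5′ to 3′, with TATAAA and GGGCGG or its reverse complement CCGCCC in capitals; KRT5 holds neither. They lie at chr12:52520395-52520644, chr17:40822615-40822864, chr17:41440984-41441233 and chr12:52434372-52434621, in that order. A match is a string of letters and was not tested as a binding site.
KRT5: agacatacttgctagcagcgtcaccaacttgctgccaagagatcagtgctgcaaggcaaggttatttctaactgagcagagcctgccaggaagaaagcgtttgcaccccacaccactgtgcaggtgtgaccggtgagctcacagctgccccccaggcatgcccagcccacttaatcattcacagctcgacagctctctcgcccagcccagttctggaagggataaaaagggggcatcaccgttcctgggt
KRT10: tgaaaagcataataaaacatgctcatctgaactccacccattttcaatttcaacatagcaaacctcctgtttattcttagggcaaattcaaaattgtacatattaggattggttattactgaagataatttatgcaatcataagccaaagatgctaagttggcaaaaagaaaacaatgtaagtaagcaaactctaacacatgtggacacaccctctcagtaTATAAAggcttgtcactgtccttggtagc
KRT38: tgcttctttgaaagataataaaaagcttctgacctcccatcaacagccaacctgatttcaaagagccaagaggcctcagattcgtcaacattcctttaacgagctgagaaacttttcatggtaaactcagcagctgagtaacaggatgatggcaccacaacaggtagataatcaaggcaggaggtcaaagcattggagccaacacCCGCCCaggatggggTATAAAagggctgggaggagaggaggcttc
KRT75: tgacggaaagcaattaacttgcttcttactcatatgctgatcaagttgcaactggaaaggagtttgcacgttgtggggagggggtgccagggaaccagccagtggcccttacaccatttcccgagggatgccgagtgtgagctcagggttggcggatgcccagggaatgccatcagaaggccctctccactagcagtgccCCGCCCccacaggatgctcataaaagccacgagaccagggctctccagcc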

How the data were processed

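RNA-Seq of 24 libraries was analysed, in 8 conditions of 3 from 3 cell lines. Libraries were stranded and poly-A selected, and the submitters' processing notes name HISAT2 2.0.5 and featureCounts 1.5.0-p3. The counting strand setting is not given in the sources used here. The authors deposited TPM values for Hs578T and HCC70, CPM values for the vector table, and for the guide RNA table a normalised signal that they named CPM. Reads per library, recovered as whole multiples, were 28189500 to 33715701 (Hs578T), 24673741 to 33551321 (HCC70), 41424338 to 51018667 (guide RNA) and 15971297 to 22182293 (vector). In a simulation with TPM, the exact reads of every library were returned for 98.3% of 5930 genes. Genes above 0 in a single library were left out of that share. Intervals and floors cover counting error only.

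Members and lists were chosen with earlier results of these data known. Within each table, limma 3.58.1 (R 4.3.3, trend) was fitted two-sided to log2(value + 1) for every gene whose mean over the 6 libraries reached 1, with Benjamini-Hochberg adjustment over all genes tested and a threshold of 0.05. Fold changes on this scale understate changes of low genes. The difference of the BCSC effect was a contrast over both sorted lines. edgeR 4.0.16 and DESeq2 1.42.0 on the recovered reads were alternatives, with other pseudocounts, minimum means and scaling, a replicate block, and single libraries left out. Class levels used the length of 1 transcript per gene and had no test. Named were KRT5, KRT7, KRT8, KRT14, KRT17, KRT18 and KRT19, each called keratin, the 5 most abundant keratins per condition and up to 4 called genes per partner list; others were chosen after their values were seen. Annotation was GENCODE 44.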

Additional observations from a re-analysis of the deposited data

How the results depend on the processing

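Of the values for single keratins, 432 kept direction and side of the threshold, 24 lost the call, 2 gained it and 10 turned in sign. The count of called keratins in Hs578T was 1 to 2 with single libraries left out; with no minimum mean it was again 2, but KRT3 took the place of KRT18. In HCC70 it was 0 to 1, for KIF20A sg1 0 to 1 (KRT10), for the difference of BCSC effects 0 to 1 (KRT7), and for KIF20A OE 9 to 11 against 13. DESeq2 called 1 keratin for KIF20A sg1 (KRT81), and a minimum mean of 0.1 called 1 for the difference of effects (KRT3). A minimum mean of 10 left 7 called in KIF20A OE against 13, since fewer genes were tested. With size factors from median ratios, the simple class in EV was 1582 CPM per kb. With the length of all exons merged, chosen after seeing the data, the simple share was 81.7% in sgCtrl, 80.9% in KIF20A sg1, 91.6% in EV and 79.3% in KIF20A OE. The mean ratio of KRT18 to KRT8 was then 0.851 in sgCtrl, 0.893 in KIF20A sg1, 1.48 in EV and 1.01 in KIF20A OE. Only the length used differs there.

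With single libraries left out, values near 0 turned in sign: KRT14 in Hs578T ranged from -0.11 to 0.082 on the log2 scale, KRT19 in HCC70 from -0.14 to 0.030 and KRT5 from -0.049 to 0.030. For the difference of effects KRT18 ranged from -0.16 to 0.021 and KRT14 from -0.26 to 0.0032.

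The replicate block left 1 keratin called in Hs578T (KRT80), with KRT18 at a limma adjusted p of 0.0592, and changed no other count of called keratins. In no comparison was every correlation of same-numbered samples above 0.1, so the numbers were not read as pairing; every sample was closest to its own number in KIF20A OE against EV alone. Depth limits what can be said of keratins of few reads, such as KRT19 and KRT17 in Hs578T.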
